A study of Mus musculus with 2 samples.

Results

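Pecam1, Cdh5, Kdr, Flt1, Ecscr, Egfl7, Esam and Emcn are 8 genes widely used to recognise endothelial cells, and they were followed here cell by cell in a mouse mammary single-cell data set. They were chosen by name, and all 8 had a row among the 13774 genes of the table. The question addressed was which groups of cells held them, and which cells held several of them at once. Several members at a high level marked 9 cells, 6 from tumors and 3 from normal gland, among 2791 cells kept. Outside those 9 cells, different members lay in different groups: Pecam1 in leukocytes of both libraries, Kdr in macrophage-gated tumor cells, and Ecscr, Egfl7 and Esam in tumor cells that expressed the homeobox gene Rhox5.

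Endothelial cells line blood vessels, where Cdh5 (VE-cadherin), Pecam1 (CD31) and Esam hold neighbouring cells together at their junctions. Kdr and Flt1 encode the VEGF receptors VEGFR2 and VEGFR1, the main routes by which the growth factor VEGF reaches the vessel wall. Egfl7 is a secreted protein of growing vessels, Ecscr is a membrane protein of endothelial cells that acts in their migration, and Emcn encodes endomucin, a glycoprotein of venous and capillary endothelium. Several of these genes are not restricted to vessels. Pecam1 is known from platelets and many leukocytes, and Flt1 from monocytes, so a transcript of 1 gene does not identify an endothelial cell.

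The study compared endothelial cells of the normal mammary gland (NEC) with those of EO771 tumors (TEC). Both groups came from female C57BL6/J mice, 8 weeks old, of the genotype Cdh5Cre-ERT2:ZSGreenl/s/l, in which tamoxifen switches on the fluorescent protein ZSGreen through a Cre driven by the Cdh5 promoter. The mice received 1000000 cells of the EO771 mammary tumor line, which is syngeneic to C57BL6 mice, in the mammary fat pad, and tissue was taken after about 3 weeks. The labels state a sort for live cells positive for ZSGreen, which were then read with the droplet method of 10x Genomics at the 3' end of transcripts, and no treatment was given. The name of the deposited table refers to negative cells, so whether it holds the sorted ZSGreen-positive fraction is not settled here. Each share below is therefore a share of the cells in this table, not of a known sort fraction. How many mice were pooled is not given in the sources used here. Each group was 1 library, so no difference between groups could be tested, and every interval below is an exact 95% interval that covers counting error only. Where no cell held a gene, the limit given is 3 counts of the total, and it limits cells with a UMI at that depth, not cells that express the gene.

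The labels call both samples endothelial cells, and most cells of the table lacked the defining markers. Cdh5, Kdr and Emcn were listed at 0 in NEC, and Cdh5 was present in 32 of 997 TEC cells. The pan-leukocyte gene Ptprc was present in 44.6% of NEC cells and 68.4% of TEC cells. Depth differed: the median was 2259 unique molecular identifiers (UMIs, counted transcripts) per cell in 1794 NEC cells and 8594 in 997 TEC cells, with lowest values of 1157 and 6376 in the deposited table. Of the genes in the table, 1770 were listed at 0 in NEC, only 15 were present there in 1 to 4 cells and 334 in exactly 5 cells. A 0 for Cdh5, Kdr or Emcn in NEC may therefore hide a few cells, and neither a limit nor a fold is given for it. The libraries shared 2 cell barcodes, none of them in the 9 cells with several members.

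Cells were placed in groups by marker genes that included none of the 8 members. NEC held 619 T or NK-gated cells, 612 B or plasma-gated, 221 macrophage or monocyte-gated, 74 fibroblast-gated, 33 dendritic-gated and 31 epithelial-gated cells. TEC held 542 macrophage or monocyte-gated cells, 193 Rhox5-gated cells (at least 2 UMIs of Rhox5), 51 T or NK-gated and 50 dendritic-gated cells. A further 37 NEC and 122 TEC cells met several gates and are called mixed, and 164 NEC and 29 TEC cells met none. The Rhox5-gated cells were much deeper than the rest, with a median of 40909 UMIs against 7457 in TEC macrophage-gated cells. They stood at 654 UMIs of Rhox5 per 1000000 UMIs (CPM) and 10.2 CPM of Ptprc, against 227 CPM of Ptprc in TEC macrophage-gated cells.

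In the GRCm38 (mm10) annotation of GENCODE M21, Pecam1 is at chr11:106654217-106750628 on the minus strand, Cdh5 at chr8:104101625-104144511 on the plus strand, and Kdr at chr5:75932827-75978458 on the minus strand. Flt1 shares that chromosome with Kdr, at chr5:147561604-147726011 on the minus strand. Egfl7 is at chr2:26580014-26593120 on the plus strand. Esam is at chr9:37528078-37538319 and Emcn at chr3:137341067-137432185, both on the plus strand. The position of Ecscr is not given here.

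The promoters of Emcn, Kdr and Flt1 are shown because Emcn had the highest share of its tumor UMIs in the cells called endothelial-like below and Kdr the lowest, and Flt1 is the other VEGF receptor gene of the set. Each line is the RefSeq window of 300 bases on build GRCm38.p6, from 250 bases before the start of the gene to 50 after it, 5′ to 3′ on the strand of the gene. Capitals mark GGAA or its reverse complement TTCC, the core of sites for ETS factors, a family that is known for its part in endothelial transcription. The windows are chr3:137340828-137341127 (plus strand), chr5:75978406-75978705 (minus strand) and chr5:147725962-147726261 (minus strand).
Emcn: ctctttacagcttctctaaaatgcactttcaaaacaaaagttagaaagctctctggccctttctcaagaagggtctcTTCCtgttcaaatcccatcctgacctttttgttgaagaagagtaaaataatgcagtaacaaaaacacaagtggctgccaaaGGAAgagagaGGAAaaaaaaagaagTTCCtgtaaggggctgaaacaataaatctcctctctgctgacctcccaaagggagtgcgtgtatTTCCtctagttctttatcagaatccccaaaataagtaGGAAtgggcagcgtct
Kdr: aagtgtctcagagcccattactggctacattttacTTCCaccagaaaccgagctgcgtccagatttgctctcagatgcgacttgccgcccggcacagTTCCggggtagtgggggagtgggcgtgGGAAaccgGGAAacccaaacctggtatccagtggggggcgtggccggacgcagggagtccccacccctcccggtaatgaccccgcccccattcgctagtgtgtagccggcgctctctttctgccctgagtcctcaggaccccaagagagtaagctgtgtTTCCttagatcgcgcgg
Flt1: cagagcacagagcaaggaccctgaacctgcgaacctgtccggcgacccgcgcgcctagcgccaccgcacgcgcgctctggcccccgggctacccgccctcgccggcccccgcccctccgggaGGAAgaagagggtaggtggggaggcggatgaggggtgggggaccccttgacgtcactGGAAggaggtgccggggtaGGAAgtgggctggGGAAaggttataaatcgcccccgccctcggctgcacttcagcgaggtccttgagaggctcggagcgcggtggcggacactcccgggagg

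The Emcn window held 6 matches, the Kdr window 5 and the Flt1 window 4. The 3 windows of Egfl7 held 5, 4 and 1. Over all 32851 windows of that length, 96.0% held a match on either strand and the median was 3, so a match in itself sets no gene apart. The letters do not overlap between the motif and its reverse complement, and a match is not a measured binding site. Windows for Pecam1, Cdh5, Ecscr and Esam are not shown.

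Few cells held several members. In NEC, 131 of 1794 cells (7.30%, 6.14 to 8.61) held at least 1 member, but 4 cells held at least 2, 3 held at least 3, 2 held at least 4 and 1 held 5. In TEC, 373 of 997 cells (37.4%, 34.4 to 40.5) held at least 1 member, 123 at least 2, 48 at least 3 and 16 at least 4 (1.60%, 0.920 to 2.59). Beyond that the TEC count fell to 8 cells with at least 5 members and 6 with at least 7, of which 3 held all 8. The share with at least 1 member follows depth: with every cell thinned at random to 1000 UMIs it was 3.57% in NEC and 5.12% in TEC.

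The number of members alone did not single out 1 kind of cell. Of the 16 TEC cells with at least 4 members, 10 were Rhox5-gated, and these were among the deepest cells of the data, with 31886 to 184252 UMIs (median 85292). Their members summed to only 0.455 to 1.67 UMIs per 10000 of the cell. In the remaining 6 cells the members summed to 35.5 to 66.2 per 10000, at 6413 to 21592 UMIs. Among the other 42 TEC cells with at least 3 members, all of them Rhox5-gated, the highest level was 5.09 per 10000.

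A rule chosen after these values were seen, at least 3 members and at least 20 per 10000, gave the 6 TEC cells (0.602%, 0.221 to 1.31) and 3 NEC cells (0.167%, 0.0345 to 0.488). They are called endothelial-like below. The 3 NEC cells were shallow, at 1278 to 1443 UMIs, and stood at 30.4 to 69.3 per 10000. Cells just outside the level reached 15.5 per 10000 in NEC and 8.09 in TEC, each with fewer than 3 members. With every TEC cell thinned to 6000 UMIs, 6 cells kept at least 4 members, all of them endothelial-like, and no other cell kept more than 2. Thinned to 1000 UMIs, the 6 TEC and 3 NEC cells were the cells with at least 2 members. Thinning recounts the members that the rule used, so these counts follow largely from the rule and are no separate support for it.

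**Figure D1:**
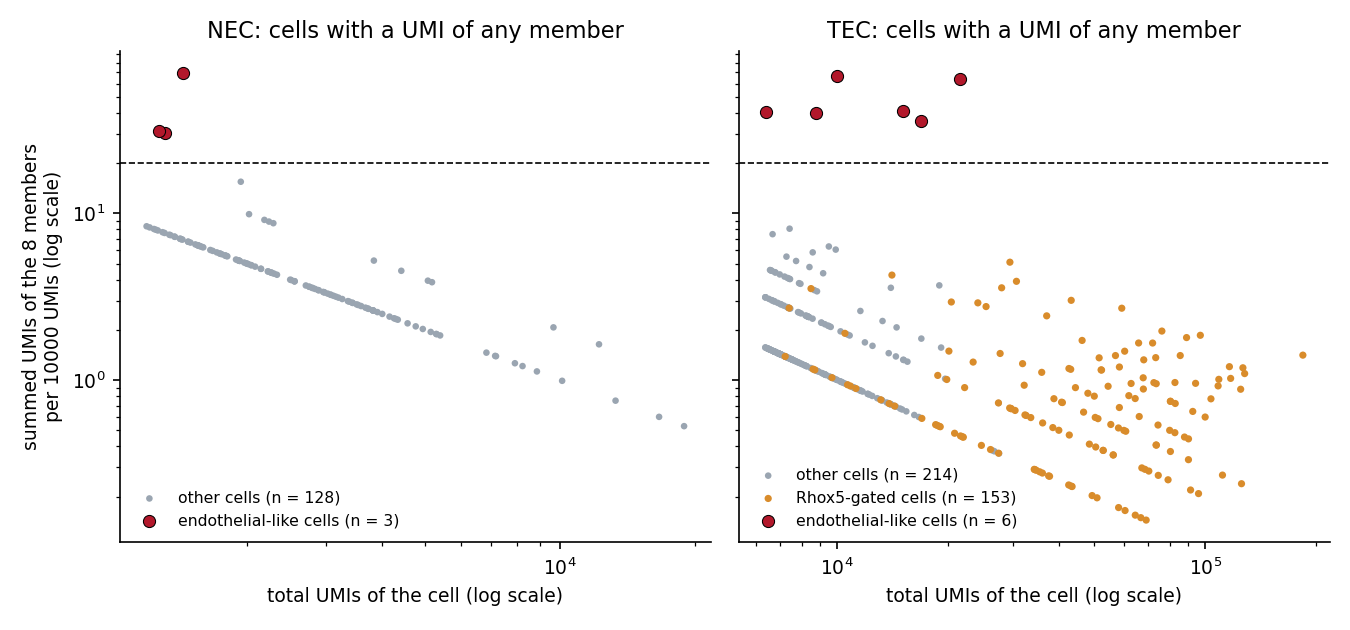
Each point is a cell with a UMI of any of the 8 members, with its total UMIs on the x axis and the summed members per 10000 UMIs on the y axis (both log scales); the dashed line is at 20 per 10000. The 9 endothelial-like cells lie above the line at low to moderate depth, while the Rhox5-gated cells reach the highest depth at levels of 5.09 or less.

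The 6 tumor cells carried the adhesion genes and the VEGF receptors together. Numbered by falling member level, they held 21, 19, 8, 1, 7 and 8 UMIs of Cdh5 and 6, 20, 6, 2, 4 and 4 of Pecam1. Every cell had both junction genes, and the range of Cdh5 was wider. Esam gave 2, 18, 3, 4, 5 and 8 UMIs, and Emcn 12, 16, 24, 1, 7 and 8. Egfl7, the secreted vessel protein, gave 6, 46, 7, 10, 5 and 20 UMIs, and Ecscr 7, 11, 10, 6, 5 and 7. The receptor genes were missing from some cells: Kdr gave 4, 4, 4, 0, 0 and 1, and Flt1 gave 8, 3, 0, 2, 2 and 4. So 6 of the 8 members were present in all 6 cells, Flt1 in 5 and Kdr in 4.

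In the 3 normal-gland cells, Pecam1 (1, 2 and 1 UMIs), Flt1 (2, 1 and 1) and Ecscr (1, 1 and 1) were present in each. Esam gave 2, 0 and 1 and Egfl7 4, 0 and 0, so that the first cell alone held 4 UMIs of a member. Counts of this size fix a presence and not a level. The first of these cells held 5 members, the second 3 and the third 4.

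**Figure D2:**
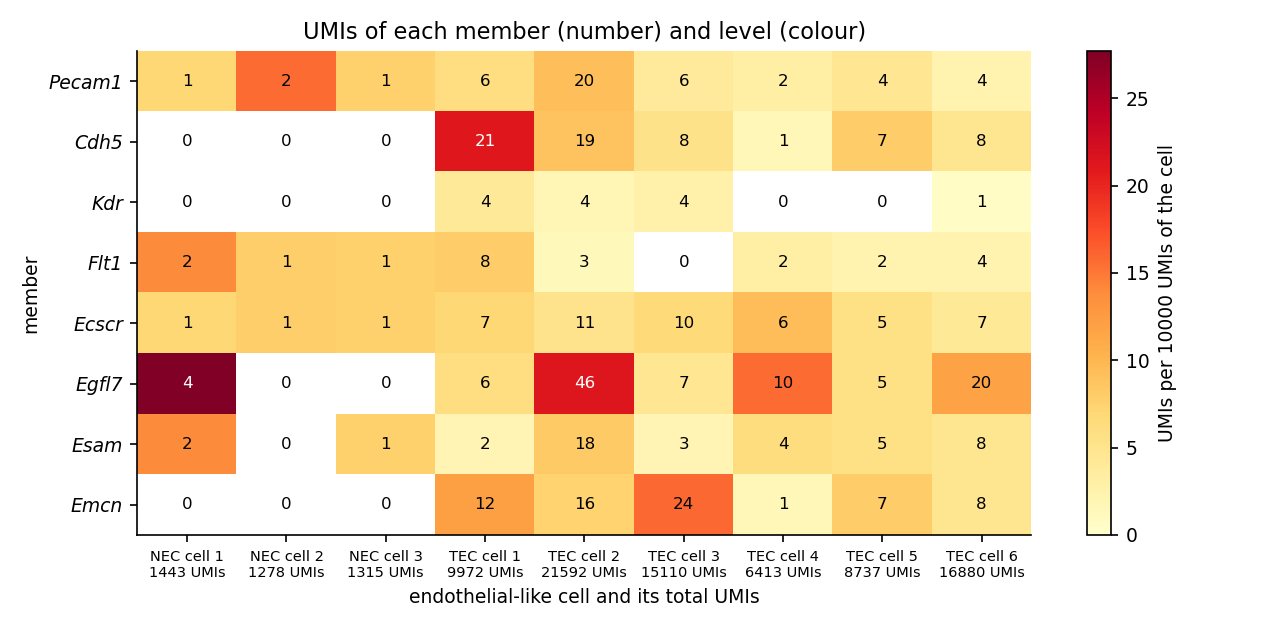
Rows are the 8 members and columns the 9 endothelial-like cells with their total UMIs; numbers are UMIs and colour is the level in UMIs per 10000 of the cell. The TEC cells hold 7 or 8 members each, the NEC cells 3 to 5, and Cdh5, Kdr and Emcn are listed at 0 throughout NEC.

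The members differed in how much of their tumor signal lay in these 6 cells. Emcn had 68 of its 71 TEC UMIs there (95.8%) and Cdh5 64 of 101 (63.4%). For Esam it was 40 of 117 (34.2%), for Flt1 19 of 58 (32.8%), for Egfl7 94 of 304 (30.9%) and for Pecam1 42 of 172 (24.4%). Ecscr had 46 of 399 (11.5%) and Kdr 13 of 200 (6.50%). In level, Emcn stood at 864 CPM (671 to 1095) in the 6 cells and 0.184 CPM in all other TEC cells, and Kdr at 165 CPM (87.9 to 282) against 11.5 CPM. These levels describe cells that the members themselves selected.

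Summed as a list, other endothelial genes, which the selection did not use, were also high in the same cells, though not every gene was. Of 22 further endothelial genes listed for this purpose, 15 had a row in the table. The 6 TEC cells held 5 to 11 of the 15 and the 3 NEC cells 3 or 4, at 17.2 to 60.8 and 34.7 to 78.2 UMIs per 10000. Ly6c1 gave 14 of the UMIs in the NEC cells, and without it the ranges were 15.4 to 59.3 in TEC and 15.6 to 30.4 in NEC. These NEC rates rest on very few UMIs. Apart from Ly6c1, the first NEC cell held 1 UMI each of Tek, Cldn5 and Ramp2. The second held 1 each of Tek and Vwf, and the third 1 each of Tek and Cldn5 and 2 of Rasip1. Values of the list in other single NEC cells of like depth are not given here. The NEC fibroblast-gated cells, summed as a group, stood at 12.2 per 10000 for the list and at 3.23 without Ly6c1. In the 10 Rhox5-gated cells with at least 4 members, the same list stood at 0.442 to 2.20 per 10000, and it reached 12.7 in any of the 193 Rhox5-gated cells. In TEC macrophage-gated cells the list never exceeded 4.03 per 10000.

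Of the TEC UMIs of Plvap, which forms the diaphragms of capillary fenestrae, 61 of 62 lay in the 6 cells, spread as 5, 17, 18, 9, 2 and 10. Gpihbp1, the capillary anchor of lipoprotein lipase, had 32 of 33 UMIs there, the adhesion receptor Adgrl4 20 of 21, and Myct1 38 of 40. Mmrn2 (9 of 11) and Robo4 (6 of 8) showed the same with fewer UMIs. All 6 of these genes were listed at 0 in NEC. Ramp2, Nos3 and Ly6c1 had most of their TEC UMIs in Rhox5-gated cells, which held 55.5% of all TEC UMIs. Ramp2 had 410 of 461 there, Ly6c1 699 of 770 and Nos3 40 of 62. Their levels were nevertheless higher in the 6 cells, at 394 against 45.1 CPM for Ramp2 and 203 against 77.0 CPM for Ly6c1. For Nos3 it was 25.4 against 4.40 CPM, on 2 UMIs in the 6 cells. Vwf, Calcrl, Rasip1 and Shank3 also had most of their TEC UMIs elsewhere. The 6 cells held 9 of 44 for Vwf, 5 of 28 for Calcrl, 4 of 36 for Rasip1 and 0 of 5 for Shank3. In level, Vwf stood at 114 CPM in the 6 cells and 2.15 CPM in all other TEC cells. Calcrl stood at 63.5 and 1.41 CPM, and Rasip1 at 50.8 and 1.97 CPM, so these 3 were higher in the 6 cells. Tek, the angiopoietin receptor, was present in 3 of 3 NEC cells with 1 UMI each and in 20 of the other 1791, and the tight junction gene Cldn5 in 2 of 3 and in 3 of the others. Both were listed at 0 in TEC. Of the genes in the table, 618 were listed at 0 there, 0 were present in 1 to 4 cells and 249 in exactly 5. A 0 in either library may therefore hide a few cells, so no contrast between NEC and TEC is read from these genes.

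Markers of other cells were few in the 9 cells. Rhox5 was at 0 in all 9, and Ptprc at 0 in 8, with 2 UMIs in the sixth TEC cell. Rhox5 was listed at 0 in the whole of NEC, so its 0 in the 3 NEC cells was fixed in advance. Ptprc was missed in many NEC leukocytes too: only 32.0% of B or plasma-gated cells held it, at a median of 1764.5 UMIs. A 0 at the 1278 to 1443 UMIs of the 3 NEC cells therefore says little. Fibroblast, epithelial, neutrophil and B-cell markers were at 0 in all 9. Macrophage or monocyte markers gave 1 to 5 UMIs in each of the 6 TEC cells and none in NEC. The fourth TEC cell held 7 UMIs of 6 T or NK markers and was gated there, and the second TEC cell met the dendritic gate with 18 UMIs of Fscn1 and 1 of another marker. Fscn1, an actin-bundling gene, was present in all 6 TEC cells (3 to 18 UMIs) and in none of the 3 NEC cells. Of the lymphatic genes in the table, Flt4 had 1 UMI in each of 3 TEC cells, Lyve1 1 UMI in 1, and Pdpn none. Whether any of the 9 droplets held more than 1 cell was not tested beyond the Scrublet calls, which had been removed. When all cells were clustered without the 8 members, the 9 cells fell in the cluster of the Rhox5-gated cells, so clustering at this resolution did not separate them.

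Apart from members, the genes most raised in the TEC cells with at least 4 members, against all other cells of the library, were Ubd, Plvap, Igfbp3, Apln, Gpihbp1, Myct1, 8430408G22Rik, Adgrl4, Tmem252 and Igfbp7. The same 10 genes led when only the 6 endothelial-like cells were taken. Igfbp7, a secreted binding protein of vessels, had 427 UMIs in the 6 cells, with 13 to 138 in each, and 132 in the other 991. Apln, the apelin ligand of endothelial tip cells, had 63 UMIs in 4 of the 6 cells and 4 UMIs elsewhere. Igfbp3 had 172 UMIs in 4 of the 6, and 10 elsewhere. Ubd is not a gene of the group as a whole, since 94.7% of its 228 UMIs came from 1 cell. For 8430408G22Rik, Igfbp3 and Apln, 1 cell gave 64.3%, 63.4% and 54.0% of the UMIs in the 6 cells. Among the remaining leading genes the highest such share was 43.8%, for Gpihbp1.

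In the 2 NEC cells with at least 4 members, the leading genes were Aqp1, Fabp4, Cxcl9, Ifit1, Iigp1, Isg15, Cxcl10, Pim3, Hspa1a and Ier3. The ranking asked for at least 10 UMIs in the selected cells themselves. Only 42 genes met that here, against 7105 in the TEC cells with at least 4 members, and Cxcl9, Pim3 and Ier3 had exactly 10. Of the 10 leading NEC genes, 8 also led among the 3 endothelial-like cells, where Sparcl1 and Igfbp7 replaced the others and 71 genes were eligible. Aqp1, the water channel of capillary endothelium, had 45 of its 48 NEC UMIs in the 3 cells, at 7 to 23 each. Fabp4, a fatty acid carrier, had 29 of 54, and Sparcl1 10 of 31. The interferon-induced genes rested on few cells: all 11 UMIs of Ifit1 and all 20 of Cxcl10 came from 1 cell. In the 6 TEC cells, Aqp1 gave 45 UMIs in 4 cells and Fabp4 26 in 2, of which 24 were in 1 cell.

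Pecam1, the adhesion molecule that leukocytes share with endothelium, was the only member common in leukocytes of both libraries. In NEC it was present in 49 of 619 T or NK-gated cells (7.92%, 5.91 to 10.3), 38 of 612 B or plasma-gated cells (6.21%, 4.43 to 8.42) and 6 of 221 macrophage-gated cells (2.71%, 1.00 to 5.82). The intervals of the T and B groups overlapped, and the macrophage share lay lowest of the 3. Fibroblast-gated cells held none in 74, at a median of 2720 UMIs, which allows a share of up to 4.05%, and epithelial-gated cells 1 in 31. In CPM the order was 32.2 in B cells (23.1 to 43.7), 27.3 in T or NK cells (20.4 to 35.8) and 7.75 in macrophages (3.12 to 16.0). Only the macrophage interval stood apart from the other 2. Of the 108 NEC cells with Pecam1 outside the endothelial-like cells, 101 had 1 UMI, and none had more than 2.

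In TEC, Pecam1 was present in 62 of 542 macrophage-gated cells (11.4%, 8.88 to 14.4), 10 of 51 T or NK-gated cells (19.6%, 9.82 to 33.1) and 18 of 193 Rhox5-gated cells (9.33%, 5.62 to 14.3). Without the endothelial-like cell gated there, the T or NK count was 9 of 50. The levels were 16.4 CPM in macrophages (12.9 to 20.6), 27.9 CPM in T or NK cells without that cell, and 1.98 CPM in Rhox5-gated cells (1.17 to 3.13). Thus the Rhox5-gated share came with the highest depth and the lowest level, and the level in macrophages was 8.28 times that of Rhox5-gated cells (4.90 to 14.7).

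Between libraries, Pecam1 was the only member with counts in both libraries that reached the 50 UMIs asked for a ratio. In macrophage-gated cells the TEC over NEC ratio was 2.12 (0.978 to 5.45), at 16.4 and 7.75 CPM, and in T or NK-gated cells it was 1.14 (0.627 to 1.98), at 31.1 and 27.3 CPM with the endothelial-like cell included. Neither met the size rule of at least 2-fold with an interval that excludes 1. Of all genes compared, 22.4% met it as higher in TEC and 6.77% as lower among 6208 genes in macrophages, and 23.1% and 13.3% among 4111 genes in T or NK cells. With NEC cells under 4000 UMIs left out, the ratios were 3.34 (1.10 to 16.6) in macrophages and 2.45 (1.01 to 6.52) in T or NK cells, both of which met the rule. Both T or NK ratios include the endothelial-like cell, which gave 2 of the 18 TEC UMIs. Without it the ratio over all NEC cells was 1.02 (0.545 to 1.82). The ratio of 2.45, with its lower bound near 1, is not given without that cell. With 1 library a group, library and tissue cannot be told apart.

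Kdr, the main signalling receptor for VEGF, was the most frequent member in macrophage-gated tumor cells. It was present in 82 of 542 macrophage-gated TEC cells (15.1%, 12.2 to 18.4) at 28.6 CPM (23.88 to 33.99), and in 19 of 122 mixed cells (15.6%, 9.64 to 23.2). In Rhox5-gated cells it was present in 12 of 193 (6.22%, 3.25 to 10.6) at 1.32 CPM (0.683 to 2.31), against which the macrophage level was 21.7 times higher (11.98 to 43.0). No T or NK-gated cell of 51 held Kdr, at a median of 9306 UMIs, which allows a share of up to 5.88%. Thinned to 6000 UMIs, Kdr was left in 11.8% of macrophage-gated cells (9.21 to 14.8) and 2.07% of Rhox5-gated cells (0.568 to 5.22). A gap between the groups is therefore seen at equal depth as well.

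The macrophage-gated cells with Kdr held few other members. Of the 82, 51 held 1 UMI, 20 held 2 and 11 held 3 or more, up to 5. None of the 82 held Cdh5 or Emcn, 13 held Pecam1 and 2 held Flt1, while 69 held Ptprc. A UMI of Cd3, the T-cell receptor complex, was found in 5 of them, and leaving out all macrophage-gated cells with Cd3 gave 15.1% again (77 of 510). Their median depth, 7953 UMIs, was near the 7396 of the other 460.

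A split of macrophage-gated cells by Kdr, made after the values were seen, named the 10 genes with the highest lower bound of the ratio among 5772. Slamf7, a leukocyte receptor, was present in 79.3% of cells with Kdr (68.9 to 87.4) and 37.2% of the others (32.7 to 41.8). Cd300e, a receptor of monocytes, was in 39.0% against 14.6%, Sh2d1b1 in 23.2% against 6.74%, and the interferon-induced genes Usp18 in 65.9% against 33.5% and Ifit3b in 35.4% against 13.5%. Dusp2 and Inpp5b were also among the 10, at 45.1% against 27.2% and 26.8% against 10.9%. For Hist4h4, Npy and Gpnmb most of the UMIs in cells with Kdr came from 1 cell (81.8%, 89.5% and 66.4%), and the shares of cells with Hist4h4 and Npy were close.

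Among macrophage markers, Ms4a7 was 2.30 times higher in cells with Kdr (2.08 to 2.54), Adgre1, which encodes F4/80, 1.84 times (1.497 to 2.260) and Cd68 1.62 times (1.49 to 1.75). Fcgr1 was 1.48 times higher (1.36 to 1.61). The intervals for Cd300a (1.16, 0.983 to 1.36), Cd14 (1.03, 0.941 to 1.12) and Csf1r (1.02, 0.840 to 1.23) included 1, as did that for Ptprc (1.00, 0.842 to 1.19). Cx3cr1 was in 0 of the 82 and in 3.04% of the others. Fn1, which encodes fibronectin, was lower with Kdr, in 18.3% of cells against 37.0%, and Tle1 was in 0 of the 82 and in 9.35% of the others. In clusters made without the members, Kdr was in 31 of 96 TEC cells (32.3%, 23.1 to 42.6) of a macrophage cluster led by the interferon-induced genes Ifit1bl1, Ifit2, Ifit3b and Ifit3. It was in 56 of 399 (14.0%, 10.8 to 17.8) of a cluster led by Arg1, and in 2 of 53 (3.77%, 0.460 to 13.0) of a cluster led by Retnlg and Adgre4, whose median depths were all between 7379 and 7531 UMIs. Cells of 1 library are not replicates, and no difference here was tested.

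**Figure D3:**
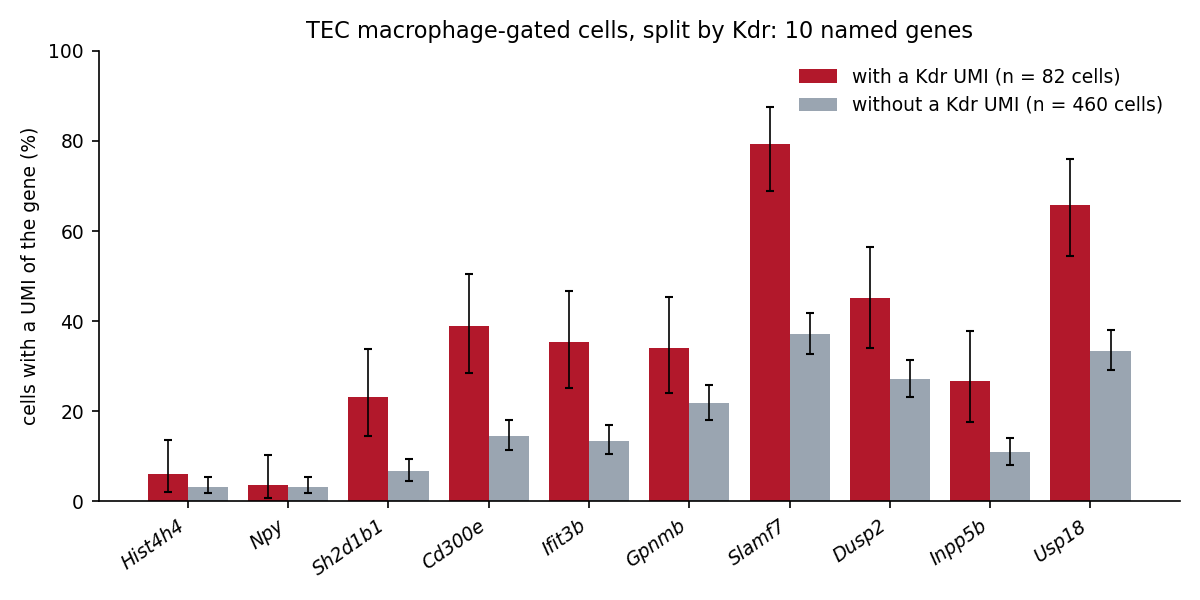
Bars give the percent of TEC macrophage-gated cells with a UMI of each gene, in cells with a Kdr UMI and in the others, with exact binomial intervals; the genes are the 10 named by the lower bound of their ratio. Slamf7 stands at 79.3% against 37.2%, and Hist4h4 and Npy stay below 10% in both sets.

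Flt1, the VEGF receptor known from monocytes, was found in macrophage-gated cells of both libraries. It was present in 4 of 221 NEC cells (1.81%, 0.495 to 4.57) at 5.54 CPM (1.80 to 12.9), and in 20 of 542 TEC cells (3.69%, 2.27 to 5.64) at 5.77 CPM (3.77 to 8.45). The intervals of level overlap almost wholly, and the UMIs were too few for the ratio. In Rhox5-gated cells 6 of 193 held Flt1, at 0.661 CPM (0.242 to 1.44). Like Kdr, Flt1 was more frequent in the cluster led by interferon-induced genes, in 12 of 96 TEC cells (12.5%, 6.63 to 20.8) against 10 of 399 (2.51%, 1.21 to 4.56) in the cluster led by Arg1.

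Ecscr, Egfl7 and Esam had another distribution, with nearly all of their remaining tumor UMIs in Rhox5-gated cells, which held 55.5% of all TEC UMIs. Ecscr was present in 100 of 193 (51.8%, 44.5 to 59.0) at 38.0 CPM (34.1 to 42.2), with up to 16 UMIs in a cell. Egfl7 was present in 94 (48.7%, 41.5 to 56.0) at 21.9 CPM (19.0 to 25.2), and Esam in 42 (21.8%, 16.2 to 28.3) at 8.37 CPM (6.59 to 10.5). In TEC macrophage-gated cells the same genes were in 2, 1 and 1 of 542 cells.

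The few macrophage UMIs of these genes can be set beside Rhox5 itself. The level of Rhox5 in TEC macrophage-gated cells, 7.54 CPM, was 1.15% (0.797 to 1.61) of that in Rhox5-gated cells. For Ecscr this share was 1.17% (0.141 to 4.25), for Egfl7 1.01% (0.0255 to 5.71) and for Esam 2.65% (0.0662 to 15.2). The Rhox5 share lies inside each interval, but the intervals are wide and rest on 2, 1 and 1 macrophage UMIs. Rhox5 also set the gate, which limits its level in macrophage-gated cells, so nothing is concluded from the overlap. Where the macrophage UMIs came from was not tested. For Cdh5 the macrophage share was 17.8% (3.49 to 56.5), on 3 macrophage UMIs, and for Kdr and Flt1 the level was higher in macrophages.

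The high shares in Rhox5-gated cells depended on depth. Thinned to 6000 UMIs, Ecscr was left in 17.1% of them (12.1 to 23.2), Egfl7 in 10.4% (6.45 to 15.6) and Esam in 4.66% (2.15 to 8.67), against 0.369%, 0.185% and 0.185% of macrophage-gated cells. The intervals of the 2 groups stayed apart for each gene. The Rhox5-gated cells with Ecscr held Egfl7 in 55.0% (44.7 to 65.0) and those without it in 41.9% (31.8 to 52.6), but their median depths were 57730 and 29342 UMIs. After thinning, 33 cells held Ecscr, 20 held Egfl7 and 1 held both, so no excess of shared cells was detectable at equal depth.

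**Figure D4:**
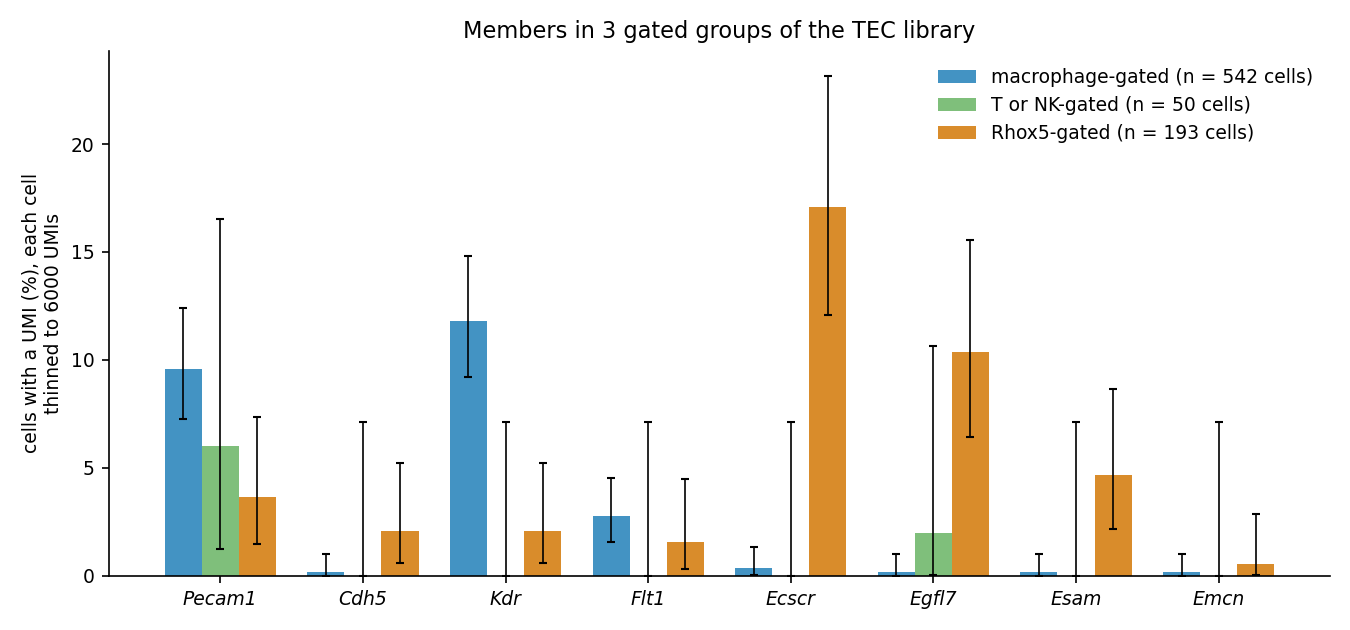
Bars give the percent of TEC cells with a UMI of each member after every cell was thinned to 6000 UMIs, with exact binomial intervals, for macrophage-gated, T or NK-gated and Rhox5-gated cells without endothelial-like cells. Kdr is higher in macrophage-gated (11.8%) than in Rhox5-gated cells, Pecam1 has overlapping intervals in macrophage-gated (9.59%) and T or NK-gated cells, and Ecscr, Egfl7 and Esam are higher in Rhox5-gated than in macrophage-gated cells (Ecscr 17.1%, Egfl7 10.4%, Esam 4.66%).

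In NEC, where no cell was Rhox5-gated, the same 3 genes were rare. Ecscr was present in 3 of 74 fibroblast-gated cells (4.05%, 0.844 to 11.4), with 3 of its 5 UMIs in 1 cell, and in 2 of 31 epithelial-gated cells. Egfl7 was in 3 of 619 T or NK-gated cells and 1 of 221 macrophage-gated cells, each with 1 UMI. Esam was in 2 of 33 dendritic-gated cells (6.06%, 0.743 to 20.2) and in 1 cell each of the B, T, macrophage and fibroblast groups. At these counts no order among the groups can be given.

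Cdh5 and Emcn, which encode VE-cadherin and endomucin, had the largest shares of their TEC UMIs in the endothelial-like cells, which the members themselves selected, and were listed at 0 in NEC, its 3 endothelial-like cells included. Outside the 6 TEC cells, Emcn was left in 3 TEC cells with 1 UMI each, 2 of them Rhox5-gated and 1 macrophage-gated. Cdh5 was left in 26 TEC cells, of which 23 were Rhox5-gated (11.9%, 7.71 to 17.3) and 3 macrophage-gated (0.554%, 0.114 to 1.61). In the Rhox5-gated cells it stood at 3.74 CPM (2.59 to 5.23), with up to 4 UMIs in a cell, against 813 CPM (626 to 1038) in the endothelial-like cells. The Rhox5-gated cells with Cdh5 had a median of 67901 UMIs and those without it 37642, and thinning to 6000 UMIs left 4 with Cdh5.

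Across the 14 groups of at least 20 cells in a library, the genes whose log2(CPM + 1) followed a member most closely were ranked by Pearson's r among 10633 genes. These groups share libraries and depth, and the endothelial-like cells set the high values of the ungated TEC group, so r is only a description. Cdh5 and Emcn were each nearest to the other (r = 0.97), and Emcn was next nearest to Apln (0.97) and Plvap (0.94). Ecscr was nearest to Cav1 (0.93), which encodes caveolin, then Serpinh1 and Prkcdbp. Kdr was nearest to 2010005H15Rik (0.94), Phf11a and Cd276, and Pecam1 to P2ry10 (0.89), Sept6 and Mfng. Flt1 was nearest to 2310040G24Rik (0.89), Tifab and Vwf. Egfl7 was nearest to Prr11 (0.94), Ddah1 and Mylk, and Esam to Laptm4b (0.83), Egfl7 and Mapkap1.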

How the data were processed

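The authors deposited raw UMI counts, with no scaling, for each gene in each cell. The submitters' processing notes name STAR 2.5.1b, Cell Ranger 2.0.2 and Seurat, with build mm10, and no settings. Column names beginning with control were taken as NEC, on that word alone, and tumor as TEC; tumor cells numbered exactly 1000 as deposited.

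Cells needed at least 500 genes and 1000 UMIs, with mitochondrial UMIs up to 10% (5 NEC cells removed), and Scrublet in scanpy 1.11.5 removed 7 NEC and 3 TEC cells. A gate asked for 2 distinct markers of a class and 5 UMIs per 10000; a cell in several gates went to the highest if it was 4 times the next, otherwise to mixed. Rhox5 (at least 2 UMIs and 1 per 10000) took precedence. Marker lists lost genes absent from the table, such as 2 of 12 T or NK and 6 of 8 pericyte or smooth muscle genes. CPM is UMIs per 1000000 of a group's summed UMIs, with exact Poisson intervals. Shares have Clopper-Pearson intervals, and ratios conditional Clopper-Pearson ones. Thinning drew UMIs of each cell without replacement, with a fixed seed. Clusters used 2000 variable genes, 30 components, 15 neighbors and Leiden resolution 0.8. Software was Python 3.11.15, numpy 2.4.6, scipy 1.17.1, pandas 2.3.3, anndata 0.12.19, igraph 0.11.9 and matplotlib 3.10.9.

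Named were the 8 members, the second endothelial list, the 10 genes with the highest lower bound of the ratio in cells with at least 4 members (at least 10 UMIs), and the 3 genes most like each member. Values of 1 macrophage marker are not reported here. The members and lists were chosen with earlier results of these data known. The level rule for endothelial-like cells, the split by Kdr and the sets without endothelial-like or Cd3-holding cells were chosen after seeing the data. Alternatives were other gates, clusters, thinning, detection minimums, scalings and cell sets.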

Additional observations from a re-analysis of the deposited data

How the results depend on the processing

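No paired analysis was possible because each group is 1 library. The share of cells with a UMI moved with depth and with the detection minimum. Kdr in TEC macrophage-gated cells, 15.1% as reported, was 2.03% and 11.8% with cells thinned to 1000 and 6000 UMIs, and 5.72% with 2 UMIs asked for. Ecscr in Rhox5-gated cells, 51.8% as reported, was 2.07%, 17.1% and 32.1% in the same order. Pecam1 in NEC T or NK-gated cells, 7.92% as reported, was 3.23%, 5.88% (1 of 17 cells deep enough) and 0.485%. Clusters in place of gates, a gate minimum of 10 per 10000 or 3 gate markers kept these 3 shares inside their intervals. Cells with at least 4 members, 1.60% of TEC as reported, were 4.81% at 3 members, 0.802% at 5, 0.201% and 0.602% thinned to 1000 and 6000 UMIs, and 0.602% under either rule added after the data were seen (7 members, or 3 members at 20 per 10000). In NEC the share, 0.111% as reported, was 0% at 7 members. Thinned to 6000 UMIs it was 0 of 107 cells, which was fixed in advance. The NEC cells with at least 4 members, at 1315 and 1443 UMIs, were too shallow to enter that set. The Pecam1 ratio in T or NK-gated cells moved to 2.45 with NEC cells under 4000 UMIs left out. It was 0.87 with trimmed-mean scaling, which shifts all genes by -0.38 on the log2 scale, and 0.92 as a mean over cells, so its side of 1 depends on the scaling. In macrophages the ratio was 1.84 with that scaling, a shift of -0.20, and 1.56 as a mean over cells. Neither ratio met the size rule as reported, but both met it with NEC cells under 4000 UMIs left out. The ratios were then 3.34 (1.10 to 16.6) in macrophages and 2.45 (1.01 to 6.52) in T or NK cells, so both calls depend on that choice. The T or NK ratio of 2.45 includes the endothelial-like cell gated there. Without that cell the ratio over all NEC cells was 1.02 (0.545 to 1.82). The low depth of NEC, a median of 2259 UMIs per cell, limits how many members a cell can show there.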
